A study of Mus musculus with 7 samples.

Results

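Complement is the cascade of plasma and cell-surface proteins that tags dying cells, immune complexes and microbes and draws phagocytes to them. The 8 genes chosen for it here were C3, C4b, C1qa, C1qb, C1qc, Cfb, Serping1 and Cd55, as components and regulators made by tumour, stromal and myeloid cells. They were read from all probe sets to which the platform annotation gives one of these symbols and no other. This gave 9 probe sets of 6 genes among the 22690 probe sets of the array. No probe set carried C3 under this rule, and C4b shared its probe set with C4a, so these genes were not analysed here. One of the 2 probe sets that name a chosen gene together with another gene is that of C4b, and the other names Cd55 and its paralog; both were left out.

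Expression was measured in transplanted mouse mammary tumours of Met1 (3 arrays) and DB7 (4 arrays), lines derived from mice with a polyoma middle T transgene in the mammary epithelium. Met1 tumours are known to metastasise readily. DB7 tumours seldom do, and are known to carry a middle T mutated where it docks PI3 kinase. The design text instead describes tumours of first-generation crosses of PyMT mice with AKR/J or DBA/2J, and the sample labels were followed. No normal tissue is among the arrays, both groups are tumours of a single line each, and nothing used here gives the age or strain of the hosts. The question is which genes differ at baseline between the lines. The labels do not state that arrays came from separate animals, so the p-values reflect the spread among these samples alone, part of which may be technical.

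In the classical pathway, C1q, built from the chains encoded by C1qa, C1qb and C1qc, binds antibody or altered cell surfaces and starts the cascade through its proteases. C1q is unusual among complement components in being made chiefly by macrophages and dendritic cells, whereas most of the others come from the liver and, locally, from fibroblasts and epithelium. Factor B (Cfb) is the protease of the alternative pathway. C1 inhibitor (Serping1) blocks the C1 proteases, and decay-accelerating factor (Cd55) sits on cell membranes and takes apart the convertases, which shields host cells from their own complement.

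The promoters below are those of the C1q chains, whose values rose and fell together across the arrays, and of Cd55, which had the largest difference between the lines among the 6 studied genes. Each is the 250 bases before the gene start in RefSeq (build GRCm38.p6), written 5′ to 3′ on the gene's own strand. C1qb lies at chr4:136886201-136886450, C1qc at chr4:136892915-136893164 and Cd55 at chr1:130462745-130462994, all on the minus strand. The start is that of the promoter table, and for C1qc and Cd55 it lies inside the annotated span of the gene. Entries matched 3 of the 6 genes, and C1qa, Cfb and Serping1 are named only. Capitals mark a match to AGGAAGT, a core bound by the myeloid factor PU.1, here read on the opposite strand.
C1qb: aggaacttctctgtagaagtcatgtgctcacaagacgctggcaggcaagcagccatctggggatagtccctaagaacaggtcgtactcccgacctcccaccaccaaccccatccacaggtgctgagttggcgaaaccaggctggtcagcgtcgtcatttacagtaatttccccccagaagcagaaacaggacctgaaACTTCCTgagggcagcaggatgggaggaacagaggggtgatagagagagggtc
C1qc: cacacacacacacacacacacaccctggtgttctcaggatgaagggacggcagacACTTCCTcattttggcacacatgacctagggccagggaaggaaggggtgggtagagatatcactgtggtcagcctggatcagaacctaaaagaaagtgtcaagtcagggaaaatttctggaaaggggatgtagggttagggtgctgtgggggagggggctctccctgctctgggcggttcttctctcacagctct
Cd55: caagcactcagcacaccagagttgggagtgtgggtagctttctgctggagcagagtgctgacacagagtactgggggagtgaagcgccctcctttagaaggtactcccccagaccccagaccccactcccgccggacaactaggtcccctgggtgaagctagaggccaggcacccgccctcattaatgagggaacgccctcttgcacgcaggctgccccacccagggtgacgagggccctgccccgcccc
The PU.1 letters were found once in C1qb, 53 to 47 bases before the start, and once in C1qc, 195 to 189 bases before it. They occur on either strand in 7.69% of 32851 RefSeq promoter windows of this length. The other letters searched on both strands were TTCNNNGAA for STAT factors (7.02% of windows), a pair of GAAA with any 2 bases between for interferon response elements (2.98%), GGG and TTTCC with any 2 bases between for NF-kappa-B (1.41%) and TTGCNNAA for C/EBP (9.56%). None of these was in the 3 windows, and Cd55 held none of the 5 motifs. A match describes the sequence and does not show a bound site. On chromosome 4, C1qb, C1qc and C1qa lie in that order with 0 annotated genes between them.

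All 9 probe sets had a higher mean in Met1 than in DB7. Only Cd55 differed by more than the spread of the arrays on every probe set that carried its symbol alone. Values are treated as log2 signals per probe set, a scale inferred from their range. A probe set was tested where it lay above the array median on at least 3 of the 7 arrays, and each gene was represented by its brightest tested probe set. Of the 5 genes tested, 0 were higher in Met1 and 0 lower at limma's adjusted p under 0.05, where 13.0% of all 7482 tested genes were higher and 17.9% lower. At an unadjusted p under 0.05 the count was also 0. The median difference of the 5 genes was 0.34, against -0.04 over all tested genes. DB7 1 and DB7 4 stood apart from DB7 2 and DB7 3 in these genes and in stromal markers, so results are given with and without them.

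**Figure D1:**
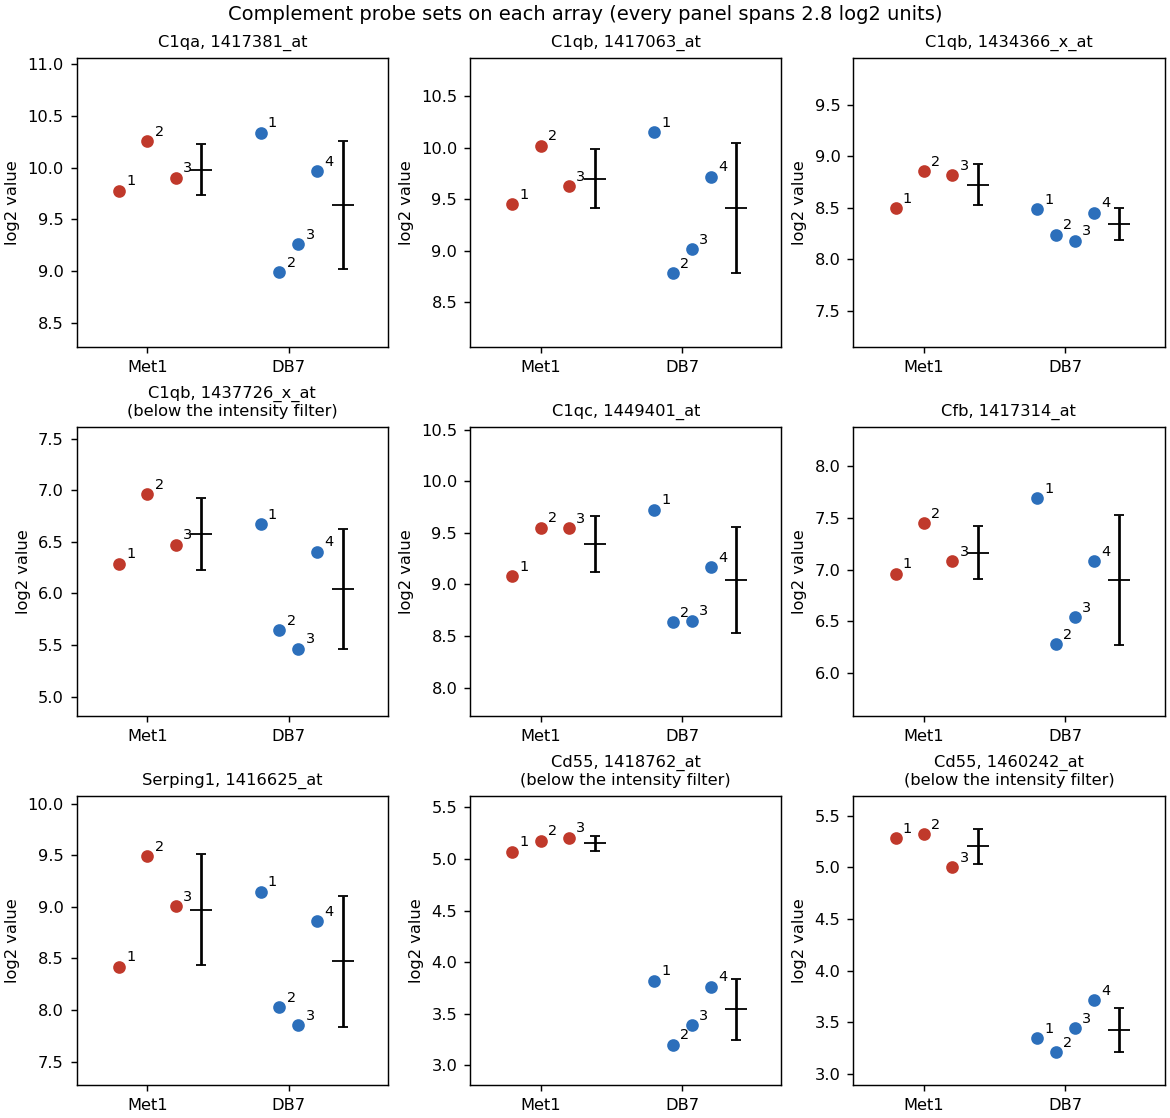
Log2 values of the 9 probe sets on each array, with Met1 in red and DB7 in blue, the array number beside each point, and the mean ± SD of each line in black. The lines overlap in 6 panels; in both Cd55 panels the Met1 arrays lie at 5.002 or above and the DB7 arrays at 3.82 or below.

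Among the C1q chains, C1qa measured 9.78, 10.25 and 9.90 on the Met1 arrays and 10.34, 8.99, 9.26 and 9.96 on DB7 1 to DB7 4. The highest and the lowest values both belonged to DB7, and the Met1 values lay between them. The mean was 9.98 ± 0.25 for Met1 and 9.64 ± 0.62 for DB7 (SD, n = 3 and 4), a difference of 0.34 (SE 0.30; limma, adjusted p = 0.431). C1qb, by its brightest probe set 1417063_at, measured 9.45, 10.02 and 9.62 in Met1 and 10.15, 8.78, 9.01 and 9.72 in DB7. The order of the arrays was that of C1qa, and the difference was 0.28 (SE 0.31; adjusted p = 0.530). C1qc measured 9.08, 9.55 and 9.54 in Met1 and 9.72, 8.63, 8.65 and 9.17 in DB7. Here again DB7 1 was the highest array and DB7 2 the lowest, and the difference was 0.35 (SE 0.26; adjusted p = 0.351).

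The other probe sets of C1qb gave a mixed answer. Probe set 1434366_x_at measured 8.495, 8.86 and 8.82 in Met1 and 8.49, 8.24, 8.18 and 8.45 in DB7. The lines did not overlap, though the lowest Met1 and the highest DB7 array nearly met, and the difference was 0.38 (SE 0.12; limma, adjusted p = 0.0398). It was the only call among the 6 tested probe sets of these genes, where 13.4% of all tested probe sets were higher in Met1. With single arrays left out, the call was lost 4 times out of 7 (without Met1 2, Met1 3, DB7 2 or DB7 3, adjusted p = 0.152, 0.144, 0.0806 and 0.0965). It was also lost without the intensity filter (adjusted p = 0.0564). The suffix of this probe set marks probes that may bind other transcripts. The dimmest probe set, 1437726_x_at, exceeded the array median on 2 arrays and was not tested in the filtered fit. It measured 6.29, 6.96 and 6.47 in Met1 and 6.67, 5.64, 5.46 and 6.40 in DB7, with DB7 1 and DB7 4 again the higher arrays of their line. Its difference was 0.53 (SE 0.29; adjusted p = 0.265 in the fit of all probe sets). The range within DB7 was 1.37 for 1417063_at, 1.21 for 1437726_x_at and 0.31 for 1434366_x_at, so the probe sets of this gene disagreed on the spread within DB7 more than on its direction between the lines.

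Cfb, the alternative pathway protease, measured 6.96, 7.45 and 7.08 in Met1 and 7.69, 6.28, 6.54 and 7.08 in DB7. DB7 spanned the whole Met1 range, and the difference was 0.27 (SE 0.30; limma, adjusted p = 0.545). Serping1, the inhibitor of the C1 proteases, measured 8.42, 9.49 and 9.004 in Met1 and 9.15, 8.03, 7.85 and 8.86 in DB7. It ranged over 1.07 in Met1 and 1.30 in DB7, where the Met1 range of the other 4 tested genes was 0.47 to 0.56. Its difference was 0.50 (SE 0.35; adjusted p = 0.313).

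By the brightest probe set of each, the spread within DB7 was larger than the difference between the lines for all 5 tested genes. From the lowest to the highest DB7 array, Cfb varied 2.67-fold, C1qb 2.58-fold, C1qa 2.55-fold, Serping1 2.46-fold and C1qc 2.13-fold. These ranges were 2.59 to 5.30 times the differences between the lines on the log2 scale. The SD of the 5 genes in DB7, 0.52 to 0.63, exceeded that of 98.2% to 99.0% of tested probe sets, whose median SD was 0.14. The other tested probe set of C1qb, 1434366_x_at, had an SD of 0.15 in DB7, above that of 54.4% of tested probe sets. Its DB7 range was 0.81 times its difference between the lines. In Met1 the SD of the C1q chains and Cfb was 0.25 to 0.29 and that of Serping1 0.54, against a median of 0.09. DB7 1 and DB7 4 both lay above DB7 2 and DB7 3 in 5 of the 5 genes, an order held by 19.1% of tested genes, and in 8 of the 9 probe sets, an order held by 17.2% of all probe sets. The exception was Cd55 probe set 1460242_at.

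Without DB7 1 and DB7 4, all 5 tested genes were higher in Met1 (limma, adjusted p 0.00646 to 0.0261), where 14.2% of tested genes were higher and 17.7% lower. C1qa then differed by 0.85, C1qb by 0.80, C1qc by 0.75, Cfb by 0.76 and Serping1 by 1.03. Because these were the DB7 arrays with the highest values of these genes, leaving them out raises the difference by construction, and the calls are no independent support. In the same fit 7 of 13 tested macrophage markers and 9 of 13 tested fibroblast markers were also higher in Met1. Without DB7 1 alone, C1qc passed (difference 0.57, adjusted p = 0.0426) and the other 4 genes did not. With each of the 7 arrays left out in turn, the difference of C1qa ranged from 0.12 to 0.57, that of C1qb from 0.07 to 0.53, that of C1qc from 0.21 to 0.57, that of Cfb from 0.06 to 0.53 and that of Serping1 from 0.24 to 0.78. The size of each difference depended on which arrays entered the fit, whereas all kept a positive sign.

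**Figure D2:**
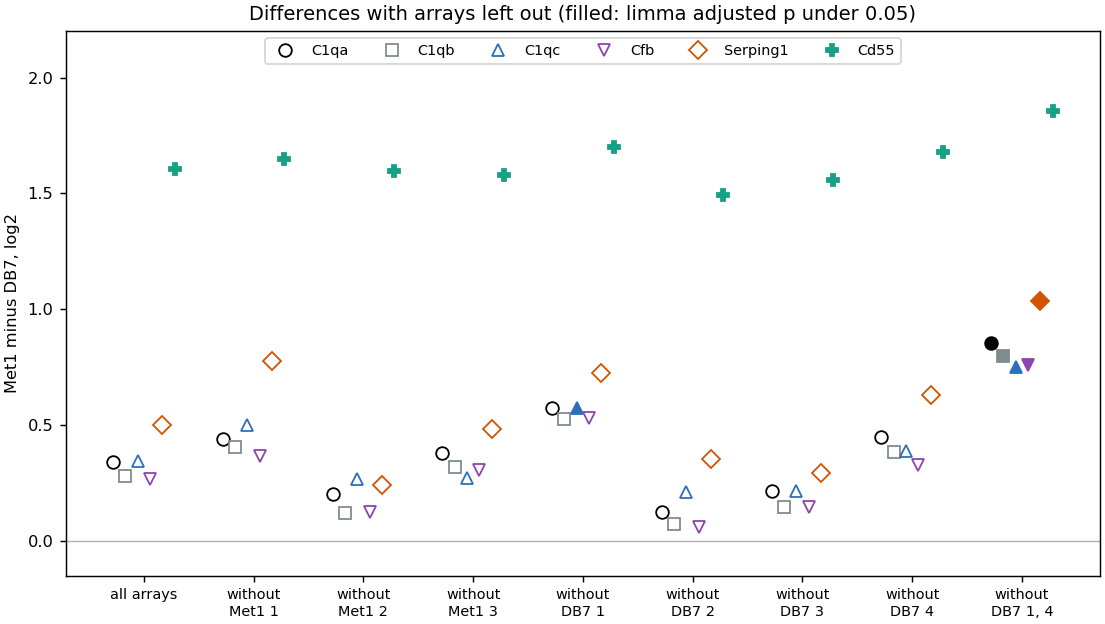
Met1 minus DB7 difference (log2) of the brightest probe set of each gene, with all arrays, with each array left out in turn and without DB7 1 and DB7 4 together; filled symbols passed limma's adjusted threshold of 0.05. Cd55, from the fit of all probe sets, is filled throughout at 1.49 to 1.86, C1qc is also filled without DB7 1, and the other genes are filled only without DB7 1 and DB7 4 together.

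Cd55 was higher in Met1 by both probe sets that carried its symbol alone, at low signal. The probe set shared with its paralog was not examined. Probe set 1418762_at measured 5.07, 5.17 and 5.21 on the Met1 arrays and 3.82, 3.20, 3.39 and 3.76 on the DB7 arrays. Probe set 1460242_at measured 5.28, 5.32 and 5.002 in Met1 and 3.34, 3.21, 3.44 and 3.71 in DB7. The lines were separated by more than a log2 unit on each, and the Met1 arrays were close to one another. The means were 5.15 ± 0.07 against 3.54 ± 0.30 for the first and 5.20 ± 0.17 against 3.43 ± 0.21 for the second (SD, n = 3 and 4).

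Both probe sets of Cd55 lay below the array medians of 6.53 to 6.61 on every array, so neither entered the filtered test. In a fit of all 22626 probe sets without the filter, Cd55 differed by 1.61 (SE 0.14; limma, adjusted p = 0.000115) and 1.78 (SE 0.12; adjusted p = 3.29e-05). These are 3.05-fold and 3.42-fold on the scale of the summaries. A fold from signal this near the floor is approximate. In that fit 7.92% of probe sets were higher in Met1. An exact permutation test over the 35 ways to divide the arrays gave p = 0.0286 for each (two-sided), the smallest it allows. Of 9997 probe sets below the median on all arrays, 302 (3.02%) passed as higher in Met1, and 9, the Cd55 pair included, differed by at least as much as 1418762_at. Without DB7 1 and DB7 4 the differences were 1.86 and 1.88. Whole-tumour arrays do not show which cells carried the transcript.

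Of the 9 probe sets, 3 had values that did not overlap between the lines, all higher in Met1, against 11.2% of all probe sets. They were the pair of Cd55 and 1434366_x_at of C1qb.

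In the rest of the pathway, 1 of 19 tested genes was higher in Met1 and 0 were lower (limma, adjusted p under 0.05), with 2 higher and 0 lower at an unadjusted p under 0.05. Over all tested genes 13.0% were higher and 17.9% lower. The list had 41 genes, of which 31 had a probe set of their own, and its median difference was -0.07. The gene that passed was Cd59a, the membrane protein that blocks assembly of the membrane attack complex, at 7.74, 7.82 and 7.94 in Met1 and 7.58, 7.40, 7.34 and 7.45 in DB7. Every Met1 array exceeded every DB7 array, by a mean of 0.39 (SE 0.09; adjusted p = 0.00808), and the call held in each of the 17 alternatives, every fit that left out an array included. The margin was narrow with the replicate number as a block (limma, adjusted p = 0.0499) and without Met1 3 (0.0436). Among other tested membrane regulators, Cr1l, the rodent regulator Crry, differed by 0.06 (SE 0.07; adjusted p = 0.576) and Cd46 by -0.04 (SE 0.08; adjusted p = 0.759). Cd46 measured 6.67 to 6.92, little above the array medians of 6.53 to 6.61.

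Proteases, terminal components and receptors gave no call in the main comparison. The largest difference below 0 was that of C1ra, a protease of the C1 complex, at -0.48 (SE 0.21; limma, adjusted p = 0.122), and it was -0.18 without DB7 1 and DB7 4 (adjusted p = 0.528). C2, the classical convertase protease, differed by -0.07 and properdin (Cfp), which stabilises the alternative convertase, by -0.20. The anaphylatoxin receptor genes C3ar1 and C5ar1 differed by -0.07 and -0.27. Cd93, a surface protein of endothelial and myeloid cells once described as a C1q receptor, differed by 0.45 (SE 0.16; adjusted p = 0.0617) and passed without DB7 1 (difference 0.56, adjusted p = 0.0178) and without DB7 1 and DB7 4 (adjusted p = 0.0204). Itgb2, a chain of complement receptor 3, differed by -0.25 with all arrays and passed as lower without DB7 2 (difference -0.45, adjusted p = 0.00761). For Itgb2 the lowest DB7 array was DB7 2, and for Cd93 the highest was DB7 1. Leaving these arrays out enlarges the differences of these genes by construction, and the calls made without them are no independent support. Without DB7 1 and DB7 4, the tested genes C2, C6, Cfp, C3ar1, Itgb2 and Cd46 went from below to above 0, and none passed. Their differences were then 0.13, 0.04, 0.16, 0.09, 0.00256 and 0.01. The genes of this list other than Cd59a, and Spi1, were chosen for naming after their values were seen.

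**Figure D3:**
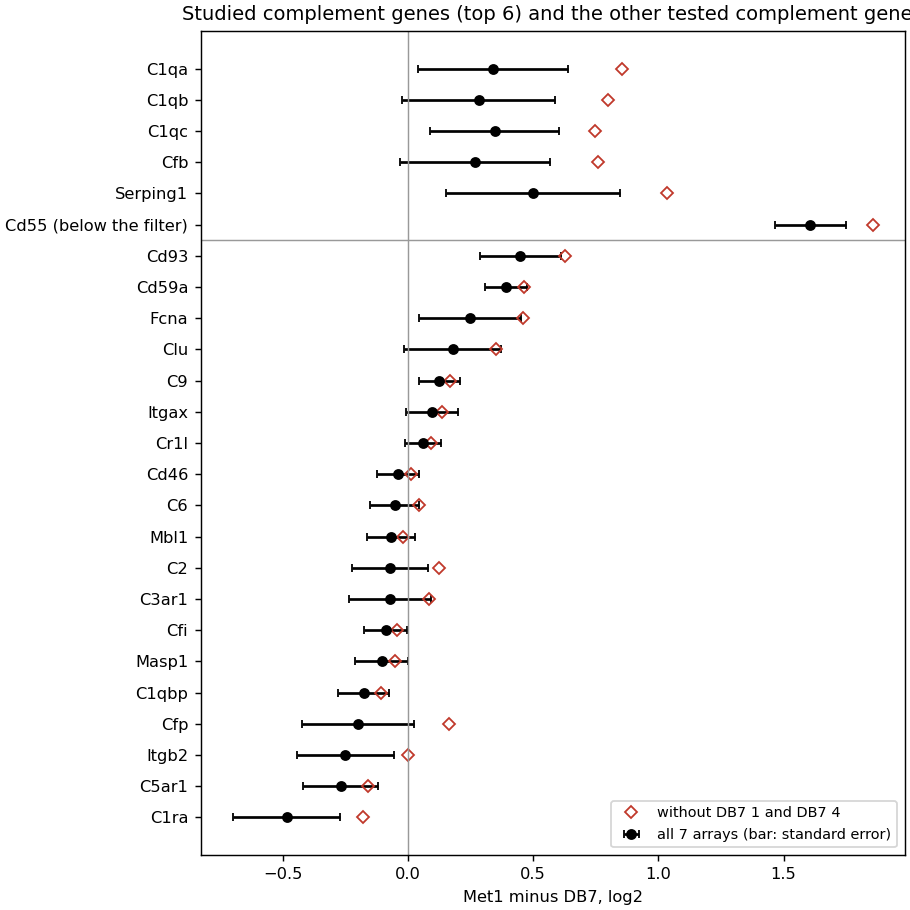
Met1 minus DB7 difference (log2) of the 6 studied genes, above the line, and the 19 other tested complement genes, below it, with all 7 arrays (black, bars are standard errors) and without DB7 1 and DB7 4 (open red diamonds). Cd55 stands at 1.61 and Cd59a at 0.39, and the remaining genes below the line lie between -0.48 and 0.45.

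Genes upstream of complement transcription moved in both directions. Of 16 tested cytokine, receptor and transcription factor genes of pathways known to induce complement genes, 3 were higher in Met1 and 5 lower at limma's adjusted p under 0.05, with a median of 0.02, where 13.0% of all tested genes were higher and 17.9% lower. Cebpd and Cebpb, C/EBP factors of the acute-phase response, were higher by 1.11 (SE 0.16; adjusted p = 0.00108) and 0.95 (SE 0.11; adjusted p = 0.000379). Stat3, which carries the interleukin-6 signal, was higher by 0.44 (SE 0.09; adjusted p = 0.00613) by its brightest probe set, while its other tested probe sets differed by -0.07 to 0.26. With the probe sets of each gene averaged, Stat3 lost its call (difference 0.21, adjusted p = 0.0763). Socs3, the feedback inhibitor of that signal, was lower by 0.87 on the log2 scale (difference -0.87, SE 0.14; adjusted p = 0.00195). The interferon regulatory factor Irf1 differed by -0.45, the interferon gamma receptor chain Ifngr2 by -0.35, the kinase Jak1 by -0.43 and the interleukin-6 receptor chain Il6st by -0.43, with limma's adjusted p of 0.0352, 0.0309, 0.0429 and 0.0376. A second tested probe set of Ifngr2 differed by -0.03, and with its probe sets averaged the gene lost its call (difference -0.19, adjusted p = 0.0983). Leaving out single arrays lost these calls in 4, 6, 5 and 5 fits out of 7. All 4 were lost without Met1 3 (adjusted p = 0.138, 0.127, 0.158 and 0.0774), without DB7 4 (0.0757, 0.0659, 0.0512 and 0.0752) and without DB7 1 and DB7 4 (0.0529, 0.118, 0.0529 and 0.157). Spi1, which encodes PU.1, lay below the array median on all arrays and differed by 0.08 (SE 0.16).

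Marker lists of other cells differed in how they followed the complement genes across the arrays. The tested macrophage, fibroblast and endothelial markers deviated from their 7-array means in the same direction as C1q on every array. The tested adipocyte markers did so on every array but DB7 4, where they deviated by -0.08 and C1q by 0.11. The tested B cell, T cell, neutrophil, hepatocyte and epithelial markers (2, 3, 2, 3 and 9 genes) differed in direction from C1q on several arrays. Of the 7 measured B cell markers, tested or not, 6 were higher in DB7 1 and DB7 4 than in DB7 2 and DB7 3. That order was held by 19.1% of tested genes. The mean level of the 15 measured macrophage markers was 7.75 to 8.12 on the Met1 arrays and 8.24, 7.43, 7.55 and 8.03 on DB7 1 to DB7 4, the order of C1q within DB7. Of these, 13 were tested and 0 passed in limma, adjusted or at an unadjusted p under 0.05. Cd163 and Fcgr1 lay below the array median on all arrays. The mean of the 16 fibroblast markers was 8.17 to 8.76 in Met1 and 8.83, 7.77, 7.43 and 8.31 in DB7, and 0 of 13 tested passed (2 higher at an unadjusted p under 0.05). B cell markers averaged 7.13 in DB7 1 and 7.40 in DB7 4, against 5.85 to 6.20 on the other 5 arrays. Of these markers 0 of 2 tested passed, and 0 of 7 in the fit of all probe sets. T cell markers averaged 6.04 to 6.51, and 1 of 3 tested, Cd3d, was lower in Met1 (difference -0.42; limma, adjusted p = 0.0466, and 0.165 without DB7 1 and DB7 4). Neutrophil markers averaged 6.32 to 6.53, and 0 of 2 tested passed. In the fit of all probe sets 1 of 7 was higher in Met1, where 7.92% of all probe sets were. It was S100a8 (difference 0.61; limma, adjusted p = 0.0101), which lay below the median on all arrays. Endothelial markers averaged 6.63 to 6.88 in Met1 and 6.43 to 7.03 in DB7, and adipocyte markers 5.92 to 7.08 and 5.91 to 7.21. Among the tested markers of these last 2 lists, 0 of 7 and 0 of 4 passed, adjusted or at an unadjusted p under 0.05 (limma). Hepatocyte markers averaged 5.41 to 5.76, with 5 of 8, among them Alb, below the median on all arrays. Of the 3 tested hepatocyte markers 1 was lower in Met1, the plasma protein gene Ahsg, at 5.77 ± 0.04 in Met1 and 7.70 ± 0.17 in DB7 (SD, n = 3 and 4; difference -1.93; limma, adjusted p = 4.53e-06). The 10 epithelial markers were all measured, none below the median on every array; their mean was 8.97 to 9.26 in Met1 and 9.55 to 9.67 in DB7, and 6 of 9 tested were lower in Met1, against 17.9% of all tested genes. Cd3d, S100a8 and Ahsg were named after their values were seen. The part of these cells in the complement values was not tested, and in whole tumours fewer cells of a type cannot be told from less RNA per cell.

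Each gene was then set on its own 7-array mean. The mean deviation of the 3 chains was -0.07, 0.44 and 0.19 on the Met1 arrays and 0.57, -0.70, -0.53 and 0.11 on the DB7 arrays. The tested macrophage markers deviated by -0.13, 0.23 and 0.13 in Met1 and by 0.38, -0.43, -0.36 and 0.18 in DB7. The signs were the same on all 7 arrays. The fibroblast list deviated by -0.11, 0.56 and 0.29 and by 0.64, -0.54, -0.94 and 0.09.

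**Figure D4:**
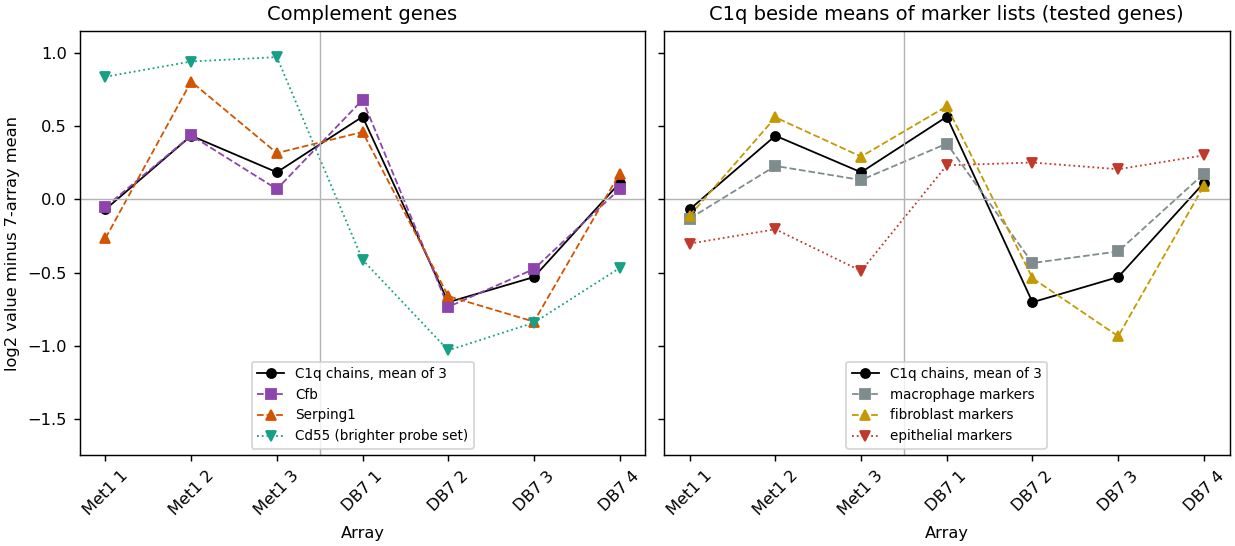
Log2 value minus the 7-array mean on each array, left for the C1q chains (mean of 3), Cfb, Serping1 and Cd55, right for C1q beside the means of the tested macrophage, fibroblast and epithelial markers; connecting lines only guide the eye. C1q, Cfb, Serping1 and the macrophage and fibroblast lists are low in DB7 2 and DB7 3, whereas Cd55 separates the lines.

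The tested genes with the most similar profiles were found by the mean absolute difference over the 7 arrays after each gene was set on its own mean. The nearest to C1qa were C1qb (0.032) and Cfb (0.068), the nearest to C1qb were C1qa (0.032) and Cfb (0.048), and the nearest to Cfb were C1qb and C1qa. C1qa, C1qb and Cfb were thus each other's 2 nearest among 7482 genes, where the median distance was 0.41 to 0.42. C1qc lay nearest to the antibody receptor gene Fcgrt (0.074) and the collagen gene Col5a1 (0.080). Serping1 lay nearest to Loxl1, a lysyl oxidase of the matrix (0.081), and the fibronectin gene Fn1 (0.11). Cd55 lay nearest to the luminal transcription factor gene Gata3 (0.092) and to Stac2 (0.11).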

How the data were processed

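Total RNA from frozen tumours was labelled and hybridised to 1-colour Affymetrix arrays, per the labels' protocols. The authors deposited 1 value per probe set and array, taken here as log2 from its range; log base and detection calls were not stated. RMA and MAS5 appear, without a role, in the submitters' processing notes. Values were used as deposited. The number of arrays limits the precision.

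After removal of 64 control probe sets, 22626 remained; 20380 had 1 gene symbol, 691 several and 1555 none; of the first, 20351 were found in RefSeq (GRCm38.p6) and 0 symbols were updated. The 11704 probe sets above the array median on at least 3 of 7 arrays were fitted with limma 3.58.1 in R 4.3.3 (lmFit, eBayes with an intensity trend, group only, two-sided), with Benjamini-Hochberg adjustment over all of them and a threshold of 0.05. Genes below the filter were read from a fit of all probe sets. The fit was tested on simulated data. Differences are Met1 minus DB7.

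Named were all probe sets of the 8 genes, upstream and other complement genes past the threshold, and the 2 nearest profiles of each gene; other list genes were named after their values were seen. Genes, lists and the fits without DB7 1 and DB7 4 were chosen with earlier results of these data known. Alternatives covered normalization, filter, variance model, array weights, probe set choice, left-out arrays and the replicate number as a block. Protein sequences were not used here.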

Additional observations from a re-analysis of the deposited data

Results flagged for a closer look

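In Cebpb, the DB7 3 array (9.30) lay below the other DB7 arrays (9.64 to 9.71), a gap of 0.834 of the whole range, above Dixon's critical value for 4 samples. It was the only one of 18 probe sets examined in this way, and chance alone marks about 1 in 20 groups.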

How the results depend on the processing

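The count of the studied complement genes higher in Met1, 0 of 5, became 1 without the intensity filter (Cd55), 0 to 1 with each array left out in turn and 5 without DB7 1 and DB7 4; the count of lower genes was 0 in each of the 17 alternatives. The count of other complement genes higher in Met1, 1 of 19, became 2 with array weights, 1 to 2 with each array left out in turn and 2 without DB7 1 and DB7 4, Cd93 joining Cd59a; the count of lower genes was 0 to 1 with each array left out (Itgb2, without DB7 2). The cause was not tested. Each difference of the 9 studied probe sets kept its sign under the alternatives that could be run for it, and Cd55 stayed past the threshold in all 14 run for each probe set (adjusted p up to 0.00168). Same-numbered arrays of the lines showed no shared deviation (correlations of -0.17, -0.05 and 0.02), and the main fit did not pair them. So few arrays cannot exclude a link between the numbers. With the replicate number as a block, 0 of the 5 genes and 1 of the 19 others were higher. In that fit 1434366_x_at of C1qb lost its call (limma, adjusted p = 0.0969). Only DB7 has an array numbered 4, so the block takes up that array. The differences therefore equalled those without DB7 4 (0.45 for C1qa in both). The signal of Cd55 limits the precision of its fold.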
